A study of Mus musculus with 8 samples.

Results

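The 9 genes followed here mark the proximal tubule. They were 9 of the 24063 gene symbols listed and were read across 8 mouse tubuloid cultures. They are the transcription factor gene *Hnf4a*, the endocytic receptor genes *Lrp2* and *Cubn*, the brush border enzyme genes *Ggt1* and *Anpep*, and the metabolic enzyme genes *Miox*, *Fbp1*, *Pck1* and *Ass1*. They were chosen by symbol, and the counts of each symbol were summed. Each of the 9 had 1 listed transcript, whose length-normalized abundance (TPM, the authors' unit that divides by transcript length and sets every library to the same total) was used for levels. All were present in the tables and 7 passed the filter on low counts. *Miox* and *Fbp1* did not.

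Tubuloids are epithelial structures that form when digested tubule fragments of mouse kidney are seeded between layers of Matrigel. All cultures carried the genotype Pkd2fl/fl Pax8rtTA TetOCre mTmG, that is floxed *Pkd2*, a Cre that doxycycline can switch on where the *Pax8* promoter is active, and a membrane colour reporter. The labels name no doxycycline for these cultures and place the source kidney at postnatal day 7 to 10, while the study's text also gives younger ages. The 4 cultures of the GDNF group (numbers 6, 12, 17 and 22) received 20 ng/ml of glial-derived neurotrophic factor for 24 h in medium enriched with growth factors. The 4 control cultures (numbers 3, 7, 14 and 21) received the enriched medium without GDNF, and RNA was taken from both groups at day 7. The fragments came from whole kidney, so the cultures could hold several segments and stromal cells. In such bulk RNA, fewer cells of a type and less RNA per cell cannot be told apart.

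The proximal tubule is the first segment after the glomerular filter and recovers most of what is filtered. Its cells take up protein through megalin and cubilin, break down peptides and glutathione at a dense brush border, burn fatty acids, and make glucose and arginine. HNF4A is a nuclear receptor that directs late proximal tubule differentiation. When proximal tubule cells are injured or cultured they are known to lose many of these genes.

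Promoter sequence is shown for the 2 genes whose window held AGGTCA, the letters that nuclear receptors such as HNF4A recognise in each arm of their site, because *Hnf4a* is the regulator among the members. All 9 members had at least 1 RefSeq window (GRCm38.p6, 250 bases before to 50 bases after a start site), 13 windows in all. On either strand, AGGTCA was in 16.3% of 32851 windows and in those of *Miox* and of 1 start of *Ggt1*. The 250 bases before each start site are given 5′ to 3′, with the match in capitals.
Ggt1, chr10:75563882-75564131, + strand: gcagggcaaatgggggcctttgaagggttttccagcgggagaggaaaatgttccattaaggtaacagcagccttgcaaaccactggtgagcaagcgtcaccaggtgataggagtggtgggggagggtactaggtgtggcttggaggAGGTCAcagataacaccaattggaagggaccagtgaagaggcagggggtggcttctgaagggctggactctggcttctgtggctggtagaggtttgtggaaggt
Miox, chr15:89334223-89334472, + strand: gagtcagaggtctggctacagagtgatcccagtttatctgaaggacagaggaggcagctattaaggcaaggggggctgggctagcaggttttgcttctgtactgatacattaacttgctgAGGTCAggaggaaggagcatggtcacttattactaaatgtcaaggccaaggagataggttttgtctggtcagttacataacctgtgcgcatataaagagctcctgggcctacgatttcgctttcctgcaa
The matches of *Ggt1* and *Miox* shown were at -104 and -130 from the start site. Longer patterns of HNF4 and related receptors were also searched on both strands. CAAAGTCCA was in 0.475% of windows and AGGTCANAGGTCA, in which AGGTCA occurs on each side of a spacer base, in 0.0396%, and neither was in a member's window. These matches are letters in a window and were not tested as binding sites.

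The libraries held between 72991721 and 97490625 transcript counts. Markers of kidney epithelium were plain in all of them (7 of 7 tested), with a summed level of 139.7 to 431.7 TPM in controls and 250.3 to 568.8 TPM after GDNF. *Pax8*, a transcription factor of renal epithelium, averaged 68.8 TPM and *Epcam*, an epithelial adhesion molecule, 142 TPM. The 12 genes of a list for injured or dedifferentiated proximal tubule, all tested, summed to between 15333 and 23590 TPM in controls and between 11641 and 20054 TPM after GDNF, most of it from *Spp1* (osteopontin). The means of the other genes of that list ran from 6.44 TPM for *Havcr1* to 809 TPM for *Lcn2*. Which cells made this RNA was not tested. The sum of 10 stromal genes, all tested, ranged from 210.1 to 1752 TPM in controls and from 263.4 to 1390 TPM after GDNF. Of 7 loop and distal genes 6 were tested, with sums of 1.99 to 15.9 and 3.73 to 48.8 TPM, and *Pvalb* was at 0 in every culture. Of 10 collecting duct genes 7 were tested, with sums of 7.82 to 32.9 and 12.7 to 91.6 TPM. Sums over 5 podocyte genes were 12.2 to 88.5 and 21.2 to 96.2 TPM, those over 7 endothelial genes 38.5 to 129 and 73.0 to 159 TPM, and those over 6 leukocyte genes 11.3 to 36.7 and 20.1 to 43.0 TPM. In the endothelial list *Plvap* (57.0), *Emcn* (18.2) and *Flt1* (14.9) had the highest mean TPM, and no other gene exceeded 0.498 (*Pecam1*). *Fxyd4* (20.8) led the collecting duct list, *Calb1* (11.5) the loop and distal list and *Cd14* (22.6) the leukocyte list. No other gene of these lists averaged above 4.06 TPM (*Cd68*). Such sums follow a few genes and do not measure the amount of a cell type. The 8 genes of liver and intestine, which share HNF4A, stayed at 0.476 to 0.854 and 0.792 to 2.51 TPM, with *Sis* and *Alpi* at 0 throughout. None of these lists held a gene that passed the adjusted threshold. *Xist* RNA was above Y-linked RNA in cultures 3 and 7 of the controls and 6 and 12 of the GDNF group, and the reverse held in the other 4, so each group had 2 of either kind. Cultures 3 and 6 held both, with Y-linked sums of 1.5 and 6.46 TPM beside *Xist* at 12.5 and 57.4 TPM, whereas cultures 7 and 12 had Y-linked sums of 0, so the *Xist* kind was not uniform. The lane in which each culture was sequenced is not given in the sources used here.

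The defining genes of the proximal tubule were at low levels in every culture. Only *Ass1*, *Ggt1* and *Anpep* averaged at least 1 TPM over the 8 cultures. The means ran in the order *Ass1* 12.2, *Ggt1* 8.34, *Anpep* 1.47, *Pck1* 0.807, *Hnf4a* 0.284, *Cubn* 0.151, *Miox* 0.107, *Lrp2* 0.0572 and *Fbp1* 0.0492 TPM. The ranges of every pair of neighbours in this order overlapped. Within a culture, *Ggt1* was above *Anpep* and *Pck1* above *Hnf4a* in 8 of 8 cultures, whereas *Miox* was above *Lrp2* in 3 of 8. Among all listed genes, 71.6% lay below *Ass1* by mean TPM, 65.3% below *Ggt1*, 35.4% below *Hnf4a* and 27.0% below *Lrp2*. Without the genes at 0 in every culture, these shares were 66.4%, 58.9%, 23.4% and 13.6%. All 9 members together summed to 14.7 to 25.5 TPM in controls and 22.1 to 31.5 TPM after GDNF. Without *Ass1* and *Ggt1* the sums were 1.02 to 3.19 and 1.32 to 7.54 TPM. *Spp1* alone was at 10065 to 20987 TPM. *Hnf4a*, *Lrp2* and *Cubn*, which define the segment, were each below 1 TPM in every culture, so the libraries held little RNA of these defining genes.

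**Figure D1:**
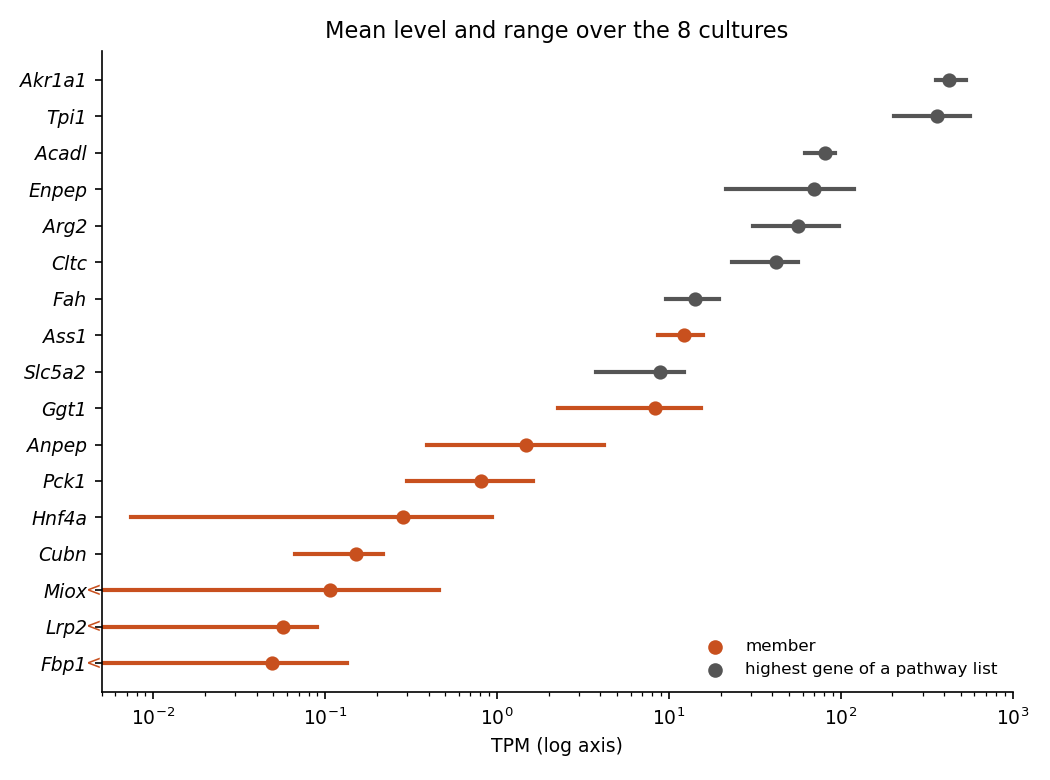
Mean TPM (dot) and lowest to highest of the 8 cultures (bar) on a log axis, for the 9 members (orange) and for the gene with the highest mean TPM of each of 8 pathway lists (grey). An arrowhead marks a lowest value of 0, which a log axis cannot show. *Ass1* at 12.2 TPM and *Ggt1* at 8.34 TPM lie near the lowest of the grey genes, and *Fbp1* at 0.0492 TPM is at the bottom.

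Whether the GDNF pulse went with a change of these genes was asked of the counts with edgeR and of TPM with an exact permutation test. None of the 7 tested members passed an adjusted p of 0.05 in edgeR, nor did any of the 16557 genes tested (0%). At an unadjusted p of 0.05 no member was called in either direction, beside 9.25% of all tested genes higher and 12.9% lower after GDNF. No member had groups that did not overlap in depth-scaled counts with TMM factors (CPM), beside 6.99% of tested genes higher and 6.26% lower. In the exact permutation test of TPM (two-sided, 70 assignments, smallest p possible 0.0286) no member reached 0.05, beside 20.6% of tested genes higher and 0.61% lower. With DESeq2, which called 9.02% of the genes to which it gave an adjusted p, no member was called, but only *Ggt1* and *Ass1* were given an adjusted p. A p above the threshold does not show that the groups were alike. The standard errors below give the uncertainty of each fold change. Changes larger than their SE also went uncalled, such as *Hnf4a* at 1.76 ± 0.85.

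The 2 scales differed. TPM carries no correction for RNA composition, and 78.8% of tested genes had a higher mean TPM after GDNF, with a median log2 ratio of 0.42. With TMM factors (0.790 in control culture 3, 0.963 to 0.982 in the other controls and 1.07 to 1.11 after GDNF) the median log2 fold change of all tested genes was 0.03. On the first scale 8 of 9 members had the higher mean after GDNF, and on the second 7 of 9. The median log2 fold change of the 7 tested members was 0.48, from -0.77 for *Cubn* to 1.76 for *Hnf4a*.

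**Figure D2:**
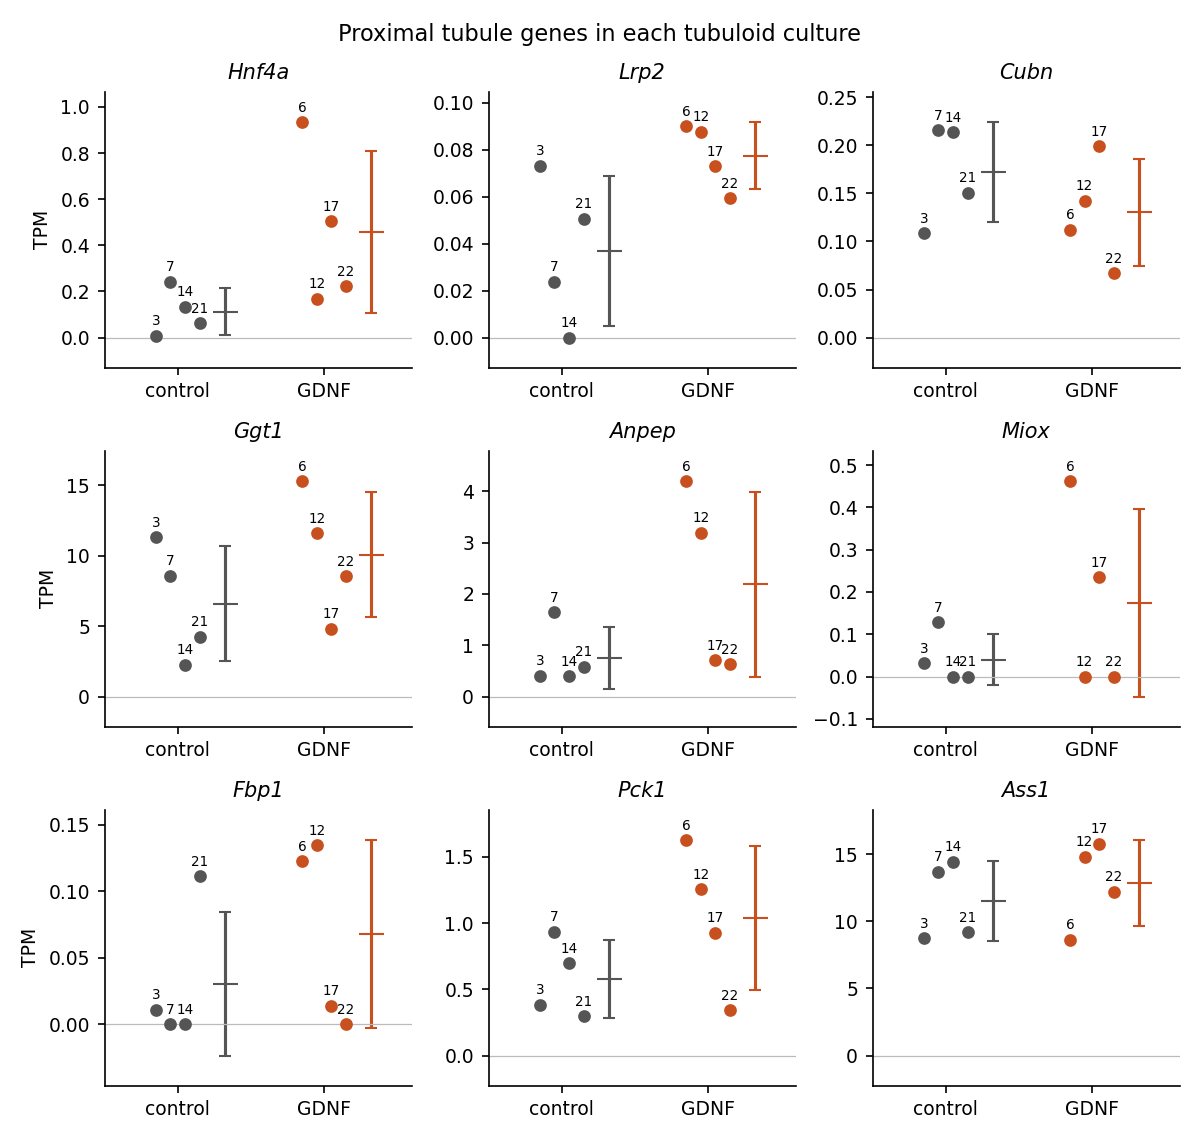
TPM of each member in each culture (points, with the culture number), and the mean with its SD beside them, for 4 control (grey) and 4 GDNF (orange) cultures, each panel on its own linear axis. The groups overlap in all panels. Culture 6 is the highest for *Hnf4a*, *Lrp2*, *Ggt1*, *Anpep*, *Miox* and *Pck1*, and *Cubn* is the panel with the lower GDNF mean.

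*Hnf4a* (NM_008261, chromosome 2, 163506811 to 163572907) encodes the nuclear receptor HNF4A and was the tested member with the largest fold change. Its TPM was 0.00741, 0.242, 0.134 and 0.0614 in controls 3, 7, 14 and 21, and 0.934, 0.169, 0.504 and 0.222 in cultures 6, 12, 17 and 22 after GDNF. These values rested on 2, 63, 34 and 13 counts in controls and 202, 37, 107 and 37 counts after GDNF. Control culture 7 lay above GDNF cultures 12 and 22, so the groups overlapped, and control culture 3 held fewer than the 3 counts used here as a detection floor. The control mean was 0.111 ± 0.101 TPM and the GDNF mean 0.457 ± 0.350 TPM (SD, n = 4 each, exact permutation p = 0.0857). In edgeR the log2 fold change was 1.76 ± 0.85 (SE), with an adjusted p of 0.253. The unadjusted p was 0.0669 in edgeR and 0.0356 in DESeq2. Leaving out single cultures moved the log2 fold change between 1.08 (without GDNF culture 6) and 2.47 (without control culture 7). Within the *Xist* cultures the GDNF mean was higher by 0.427 TPM and within the Y-linked cultures by 0.266 TPM.

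The other tubule regulators of a list of 8 were all tested, and none passed the adjusted threshold. *Hnf4g*, the paralogue of *Hnf4a*, averaged 0.353 TPM. *Rxra*, a nuclear receptor that pairs with PPAR-alpha, was at 47.0 to 50.3 CPM in controls and 54.1 to 65.1 CPM after GDNF, without overlap (log2 fold change 0.30 ± 0.12, edgeR adjusted p = 0.195). With a trend of fold change on transcript length removed, *Rxra* was at 0.03.

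*Lrp2* (NM_001081088, chromosome 2, 69424335 to 69586029) encodes megalin, the large endocytic receptor of the apical membrane. Its TPM was 0.0731, 0.0238, 0 and 0.0505 in controls 3, 7, 14 and 21, and 0.0899, 0.0876, 0.0730 and 0.0593 in cultures 6, 12, 17 and 22 after GDNF. Control culture 14 held no count, which allows up to 0.00333 TPM, while the other cultures held 22 to 70 counts over a transcript of 15467 bases. The GDNF cultures lay close together and control culture 3 fell among them. The means were 0.0369 ± 0.0318 and 0.0774 ± 0.0142 TPM (SD, n = 4 each, exact permutation p = 0.0857). Without control culture 3 the groups did not overlap and the exact permutation p was 0.0286, the smallest that 4 against 3 cultures can give. In CPM, control culture 3 at 0.969 was instead the highest of all 8 cultures, and the edgeR log2 fold change was 0.56 ± 0.95 (adjusted p = 0.755). Without control culture 14 it was 0.14, and without control culture 3 it was 1.41.

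Transcript length moved with the fold changes in these libraries. The 625 tested genes with transcripts of at least 8000 bases had a median log2 fold change of 0.44, and 199 of them were higher and 4 lower at an unadjusted p of 0.05. With the trend on length removed, their median was 0.00 and the value of *Lrp2* turned to -0.21. The part of length in the values of *Lrp2* and *Cubn* was not tested beyond this fit.

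*Cubn* (NM_001081084, chromosome 2, 13276338 to 13491876) encodes cubilin, which binds albumin and vitamin carriers and is taken up with megalin. It was the tested member with the most negative fold change. Its TPM was 0.108, 0.216, 0.214 and 0.151 in controls 3, 7, 14 and 21, and 0.112, 0.142, 0.199 and 0.0671 in cultures 6, 12, 17 and 22 after GDNF, on 29 to 146 counts. The groups overlapped, with GDNF culture 22 lowest and control cultures 7 and 14 highest. The means were 0.172 ± 0.0521 and 0.130 ± 0.0555 TPM (SD, n = 4 each, exact permutation p = 0.286). In edgeR the log2 fold change was -0.77 ± 0.41 (adjusted p = 0.293), and with the length trend removed it was -1.24 (unadjusted p = 0.0138, adjusted p = 0.215). Among the members, *Cubn* alone shared exon bases with another gene, 368 bases (2.46%) with *Gm13270* on the opposite strand, which is not listed in the tables. *Lrp2* and *Cubn*, whose proteins work as a pair, had fold changes of opposite sign in the main fit, but that of *Lrp2* (0.56 ± 0.95) was smaller than its SE. With the length trend removed both were negative, at -0.21 and -1.24.

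All 10 genes of a list of endocytic receptor partners were tested, with a median log2 fold change of -0.01. At an unadjusted p of 0.05, 1 was higher (*Myo6*, a motor of endocytic vesicles, 0.56 ± 0.23) and 1 lower (*Ehd1*, a recycling factor, -0.57 ± 0.23), and neither passed the adjusted threshold. With the length trend removed, *Myo6* was at 0.20 and *Ehd1* at -0.63. *Amn*, which carries cubilin to the cell surface, averaged 0.545 TPM. General parts of the same route were abundant, with the clathrin heavy chain gene *Cltc* at 33.2 ± 7.44 TPM in controls and 50.9 ± 9.70 TPM after GDNF (SD, n = 4 each), and a log2 fold change of 0.23 ± 0.15. The value of *Cltc* turned to -0.10 with the length trend removed. *Dab2*, the adaptor that binds megalin's tail, averaged 14.1 TPM.

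*Ggt1* (NM_008116, chromosome 10, 75561076 to 75586193) encodes gamma-glutamyltransferase 1, which begins the breakdown of extracellular glutathione. Its TPM was 11.3, 8.58, 2.26 and 4.24 in controls 3, 7, 14 and 21, and 15.3, 11.6, 4.83 and 8.57 in cultures 6, 12, 17 and 22 after GDNF, on 267 to 1535 counts. The groups overlapped widely. The means were 6.60 ± 4.10 and 10.1 ± 4.45 TPM (SD, n = 4 each, exact permutation p = 0.257), and the edgeR log2 fold change was 0.12 ± 0.56 (adjusted p = 0.921). It was 0.74 without control culture 3, and turned to -0.21, -0.19 and -0.14 without GDNF culture 6, control culture 14 and control culture 21. A contrast without overlap was seen between kinds of culture: the 4 *Xist* cultures lay between 8.58 and 15.3 TPM and the 4 Y-linked cultures between 2.26 and 8.57 TPM, without overlap, the nearest values being those of control culture 7 and GDNF culture 22. The other 8 members overlapped between kinds, and of all tested genes 1.84% were higher in every *Xist* culture and 3.32% in every Y-linked culture. Summed marker levels split the same way for collecting duct (26.5 to 91.6 against 7.82 to 15.5 TPM), loop and distal (13.7 to 48.8 against 1.99 to 8.48 TPM), leukocyte (32.9 to 43.0 against 11.3 to 22.2 TPM) and injured tubule genes (16957 to 23590 against 11641 to 15970 TPM). These sums were led by *Fxyd4*, *Calb1*, *Cd14* and *Spp1*, in that order. The part of these marker levels in the values of *Ggt1* was not tested. Within both kinds the GDNF mean was higher, by 3.52 and 3.44 TPM. In CPM these differences were -1.05 and 2.63, so that the direction in the *Xist* cultures was not the same on the 2 scales. With kind of culture in the model the log2 fold change was 0.32 ± 0.32 (edgeR adjusted p = 0.555).

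*Anpep* (NM_008486, chromosome 7, 79821803 to 79848210) encodes aminopeptidase N, which trims peptides at the brush border. Its TPM was 0.406, 1.64, 0.391 and 0.577 in controls 3, 7, 14 and 21, and 4.20, 3.20, 0.713 and 0.628 in cultures 6, 12, 17 and 22 after GDNF, on 78 to 713 counts. GDNF cultures 6 and 12 stood above all others and GDNF cultures 17 and 22 lay below control culture 7. The means were 0.754 ± 0.599 and 2.18 ± 1.80 TPM (SD, n = 4 each, exact permutation p = 0.171), with an edgeR log2 fold change of 1.20 ± 0.71 (adjusted p = 0.330). It was 0.62 without GDNF culture 6, 1.87 without control culture 7 and 0.55 with limma-voom. Both high GDNF cultures were *Xist* cultures, within which the GDNF mean was higher by 2.67 TPM, beside 0.187 TPM within the Y-linked cultures. With kind of culture in the model the log2 fold change was 0.85 ± 0.42 (edgeR adjusted p = 0.243). Whether the difference itself varied with the kind of culture was not tested.

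**Figure D3:**
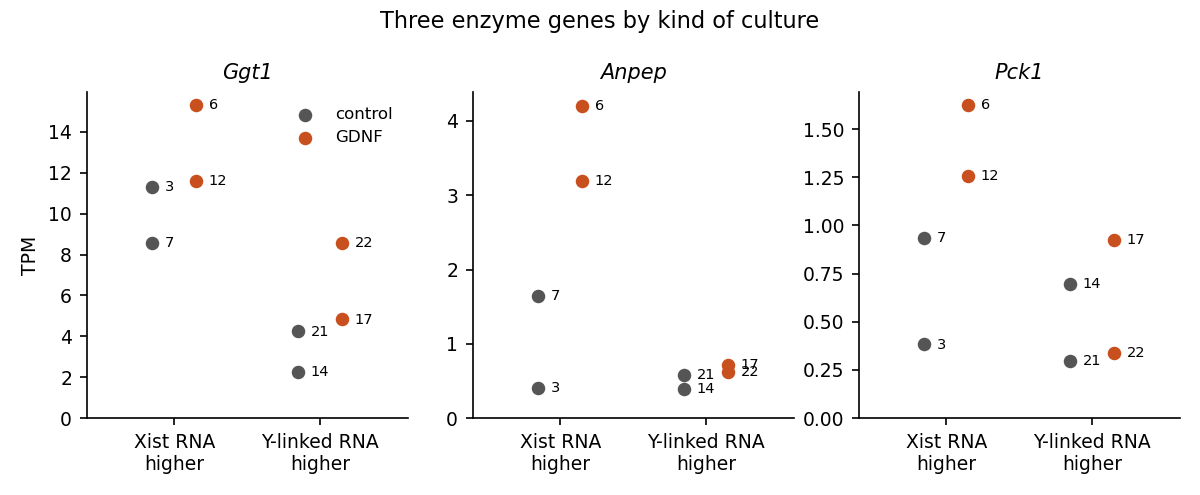
TPM of *Ggt1*, *Anpep* and *Pck1* in each culture (points, with the culture number), split by whether *Xist* or Y-linked RNA was higher, for control (grey) and GDNF (orange) cultures, on linear axes from 0. *Ggt1* in the *Xist* cultures starts at 8.58 TPM, above the 8.57 TPM of the highest Y-linked culture, and *Anpep* reaches 4.20 TPM in culture 6 but no more than 0.713 TPM in a Y-linked culture.

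Of 15 other brush border and glutathione enzymes 13 were tested, with a median log2 fold change of -0.12, and 2 were lower at an unadjusted p of 0.05 but not after adjustment. *Lap3*, a cytosolic leucine aminopeptidase, was at 47.4 to 77.3 CPM in controls and 39.4 to 46.8 CPM after GDNF, without overlap (log2 fold change -0.56 ± 0.17, edgeR adjusted p = 0.167). In TPM its groups overlapped, at 33.5 to 48.7 in controls and 36.0 to 41.2 after GDNF. *Xpnpep2*, a membrane aminopeptidase, had a log2 fold change of -2.58 ± 0.95 on at most 56 counts. *Enpep*, aminopeptidase A, was the most abundant of the list, with 50.5 ± 27.5 TPM in controls and 90.2 ± 26.04 TPM after GDNF (SD, n = 4 each), far above *Anpep*, and its log2 fold change was 0.48 ± 0.32. The meprin gene *Mep1b* had no more than 1 count in any culture.

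*Miox* (NM_019977, chromosome 15, 89334473 to 89337007) encodes myo-inositol oxygenase, which opens inositol to glucuronate in the proximal tubule. Its TPM was 0.0308, 0.128, 0 and 0 in controls 3, 7, 14 and 21, and 0.462, 0, 0.235 and 0 in cultures 6, 12, 17 and 22 after GDNF. Only control culture 7 and GDNF cultures 6 and 17 held more than 3 counts, with 8, 24 and 12, and the 4 cultures at 0 allow up to between 0.0491 and 0.0751 TPM. Detected and undetected cultures occurred in both groups (means 0.0397 ± 0.0606 and 0.174 ± 0.222 TPM, SD, n = 4 each, exact permutation p = 0.429). Of 10 other genes of inositol and glucuronate metabolism 9 were tested, with a median log2 fold change of -0.27 and 2 lower at an unadjusted p of 0.05. These were *Akr1a1*, an aldehyde reductase that acts on glucuronate, at 457 ± 73.2 TPM in controls and 401 ± 27.5 TPM after GDNF (SD, n = 4 each, log2 fold change -0.62 ± 0.22, edgeR adjusted p = 0.170), and *Ugdh*, UDP-glucose dehydrogenase, with a log2 fold change of -0.50 ± 0.18. *Isyna1*, which makes inositol, averaged 169 TPM, so that enzymes on both sides of *Miox* were abundant where *Miox* was scarcely detected.

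*Fbp1* (NM_019395, chromosome 13, 62864753 to 62888298) encodes fructose-1,6-bisphosphatase, a committed step of gluconeogenesis. Its TPM was 0.0109, 0, 0 and 0.111 in controls 3, 7, 14 and 21, and 0.123, 0.135, 0.0139 and 0 in cultures 6, 12, 17 and 22 after GDNF. No culture held more than 10 counts, and the 3 cultures at 0 allow up to between 0.0340 and 0.0531 TPM. A difference between the groups was not detectable at this depth (means 0.0306 ± 0.0541 and 0.0678 ± 0.0707 TPM, SD, n = 4 each, exact permutation p = 0.257).

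*Pck1* (NM_011044, chromosome 2, 173153073 to 173159274) encodes the cytosolic phosphoenolpyruvate carboxykinase. Its TPM was 0.383, 0.935, 0.695 and 0.299 in controls 3, 7, 14 and 21, and 1.63, 1.26, 0.925 and 0.341 in cultures 6, 12, 17 and 22 after GDNF, on 34 to 211 counts. GDNF cultures 6 and 12 lay above every control, culture 17 lay just below the highest control, and culture 22 lay among the lowest values. The means were 0.578 ± 0.293 and 1.04 ± 0.545 TPM (SD, n = 4 each, exact permutation p = 0.229), and the edgeR log2 fold change was 0.48 ± 0.54 (adjusted p = 0.616), or 0.14 without GDNF culture 6. The GDNF mean was higher by 0.783 TPM within the *Xist* cultures and by 0.136 TPM within the Y-linked cultures.

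The remaining gluconeogenic genes were uneven in level. *G6pc*, the glucose-6-phosphatase of liver and proximal tubule, had no count in any culture, whereas *G6pc3*, its widely expressed relative, averaged 21.4 TPM. *Pck2*, the mitochondrial carboxykinase, averaged 29.6 TPM against 0.807 TPM for *Pck1*, and its log2 fold change was 0.05. Of the 11 genes of the list 10 were tested, and 2 were lower at an unadjusted p of 0.05, both of them enzymes that glycolysis also uses. *Tpi1*, triosephosphate isomerase, was at 347.1 to 779 CPM in controls and 174.8 to 325.2 CPM after GDNF, without overlap (log2 fold change -1.03 ± 0.29, edgeR adjusted p = 0.167), and *Gpi1*, glucose phosphate isomerase, had a log2 fold change of -0.65 ± 0.26. In TPM the groups of *Tpi1* overlapped, at 348 to 567 in controls and 204 to 406 after GDNF. The median over the list was 0.05.

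*Ass1* (NM_007494, chromosome 2, 31470270 to 31520670) encodes argininosuccinate synthase 1, with which the proximal tubule makes arginine from citrulline. Its TPM was 8.72, 13.7, 14.4 and 9.17 in controls 3, 7, 14 and 21, and 8.64, 14.8, 15.8 and 12.2 in cultures 6, 12, 17 and 22 after GDNF, on 699 to 1373 counts. Both groups spanned nearly the same range. The means were 11.5 ± 2.98 and 12.9 ± 3.19 TPM (SD, n = 4 each, exact permutation p = 0.6). In CPM the difference had the other sign, -1.88, and the edgeR log2 fold change was -0.24 ± 0.24 (adjusted p = 0.568), the smallest standard error of the members.

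The counts of *Ass1* were nearly those of a copy. *Gm5424*, a pseudogene on chromosome 10 (62071022 to 62072571), was listed with the same count as *Ass1* in 3 cultures and with a count 1 to 3 lower in the others, for example 1373 and 1370 in control culture 14. Of the 75-base windows of the *Ass1* transcript in GENCODE release M21, 46.9% were found unchanged in *Gm5424*. The longest shared stretch of coding sequence ran for 398 bases, several times the 75 bases of a read.
How the counting assigned reads that map to both is not given in the sources used here, so the level of *Ass1* is uncertain. Why the counts were so close was not tested. No window of *Hnf4a*, *Lrp2*, *Ggt1*, *Anpep*, *Miox*, *Fbp1* or *Pck1* was found in the transcript of another gene.

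Of 10 other genes of arginine and urea metabolism 7 were tested, with a median log2 fold change of -0.25. *Asl*, argininosuccinate lyase, which acts after *Ass1*, was lower at an unadjusted p of 0.05 (-0.50 ± 0.20) but not after adjustment, and averaged 20.3 TPM. *Arg2*, the mitochondrial arginase of kidney, averaged 55.4 ± 27.8 TPM in controls and 56.7 ± 30.4 TPM with GDNF (SD, n = 4 each). A stretch of 285 exon bases of *Arg2* (19.96%) overlaps *Vti1b* on the other strand, at a mean of 169 TPM, and the strand setting of the counting is not given in the sources used here. *Cps1*, the urea cycle enzyme of liver, had no count in any culture.

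**Figure D4:**
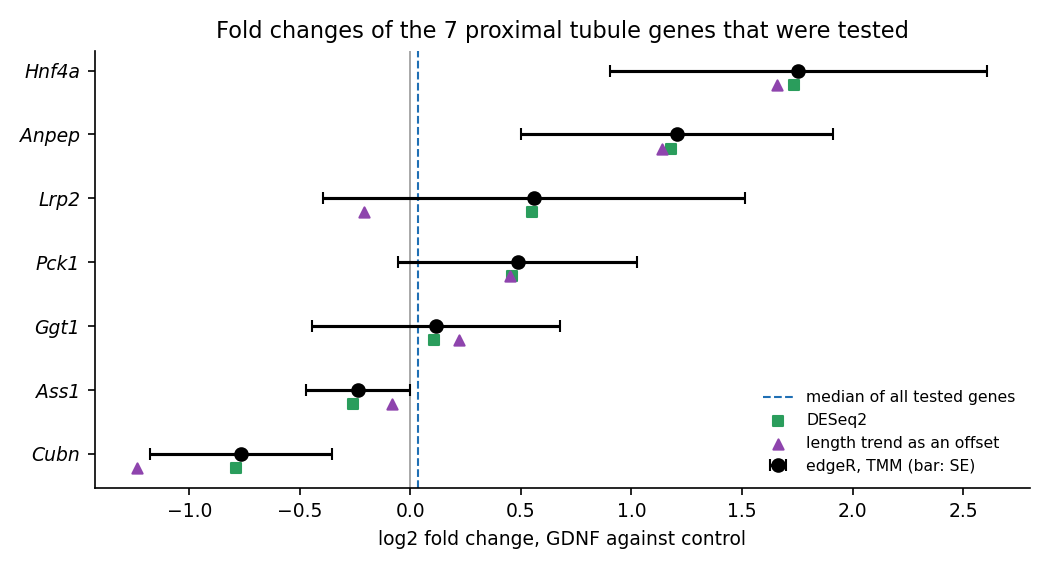
Log2 fold change, GDNF against control, of the 7 tested members from edgeR with TMM factors (black, bar SE), from DESeq2 (green squares) and with the trend on transcript length as an offset (purple triangles), with the median of all tested genes (dashed, 0.03). *Hnf4a* is at 1.76 and *Cubn* at -0.77, and *Lrp2* is the only member whose sign differs between these fits.

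Most transport genes of the segment were low as well. Of 20 proximal solute carriers 12 were tested and 3 averaged at least 1 TPM, and 5 had no more than 10 counts in any culture. The latter held *Slc34a1*, the phosphate carrier, and *Slc22a6*, the organic anion carrier OAT1. *Slc5a2*, the glucose carrier SGLT2, was the most abundant at 6.52 ± 1.96 TPM in controls and 11.2 ± 1.37 TPM after GDNF (SD, n = 4 each), with a log2 fold change of 0.42 ± 0.19 (edgeR adjusted p = 0.226). Of its exon bases 20.6% overlap *BC017158* on the other strand, which averaged 20.8 TPM. At an unadjusted p of 0.05, 2 carriers were higher and none lower. *Slc22a8*, the organic anion carrier OAT3, had a log2 fold change of 1.77 ± 0.64. *Slc6a20b*, an imino acid carrier, was at 0.0522 to 0.203 CPM in controls and 0.280 to 0.575 CPM after GDNF, without overlap (log2 fold change 1.44 ± 0.57, edgeR adjusted p = 0.192), on 5 to 56 counts and with 21.1% of its exon bases over *Sacm1l* on the other strand. The 20 carriers together summed to 10.2 to 16.7 TPM in controls and 21.9 to 26.3 TPM after GDNF, without overlap, on the scale on which 78.8% of tested genes had the higher mean. The largest parts were *Slc5a2*, *Slc4a4* and *Slc3a1*, at means of 8.88, 4.05 and 3.03 TPM. In CPM the groups of *Slc5a2* overlapped, at 7.26 to 11.8 in controls and 11.2 to 13.6 after GDNF. Sums of the fatty acid oxidation genes below did not overlap either, at 277.3 to 311.2 TPM in controls and 319.6 to 354.6 TPM after GDNF. Among single tested genes, 20.6% passed the exact permutation test of TPM as higher after GDNF. With 4 cultures per group, only groups without overlap can pass it.

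The enzymes of fatty acid oxidation, many of which other cells share, had a median level of 11.3 TPM, close to that of *Ass1*. Of 16 genes of fatty acid oxidation 14 were tested, with a median log2 fold change of 0.10, and 1 was lower at an unadjusted p of 0.05. This was *Acadl*, long-chain acyl-CoA dehydrogenase, the most abundant of the list at 84.9 ± 7.82 TPM in controls and 77.1 ± 12.3 TPM after GDNF (SD, n = 4 each), with a log2 fold change of -0.56 ± 0.21 (edgeR adjusted p = 0.182). *Cyp4a10* and *Cyp4a14*, fatty acid hydroxylases of the proximal tubule, had at most 1 and 5 counts. Of 15 genes of amino acid catabolism 11 were tested, with a median of 0.29, and 1 was higher at an unadjusted p of 0.05, *Acsm2* (1.91 ± 0.69, at most 324 counts), a mitochondrial acyl-CoA synthetase of the proximal tubule. *Fah*, the last enzyme of tyrosine breakdown, led that list with 13.2 ± 4.62 and 15.3 ± 1.98 TPM (SD, n = 4 each). Over the 9 lists, 93 of 114 genes were tested, 5 were higher and 9 lower at an unadjusted p of 0.05, none passed the adjusted threshold, and the median log2 fold change was 0.08. These counts are 5.38% and 9.68% of the 93, beside 9.25% and 12.9% of all tested genes. Groups did not overlap in CPM for 2 of the 93 as higher and 2 as lower after GDNF. Among all tested genes the shares without overlap were 6.99% and 6.26%.

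**Figure D5:**
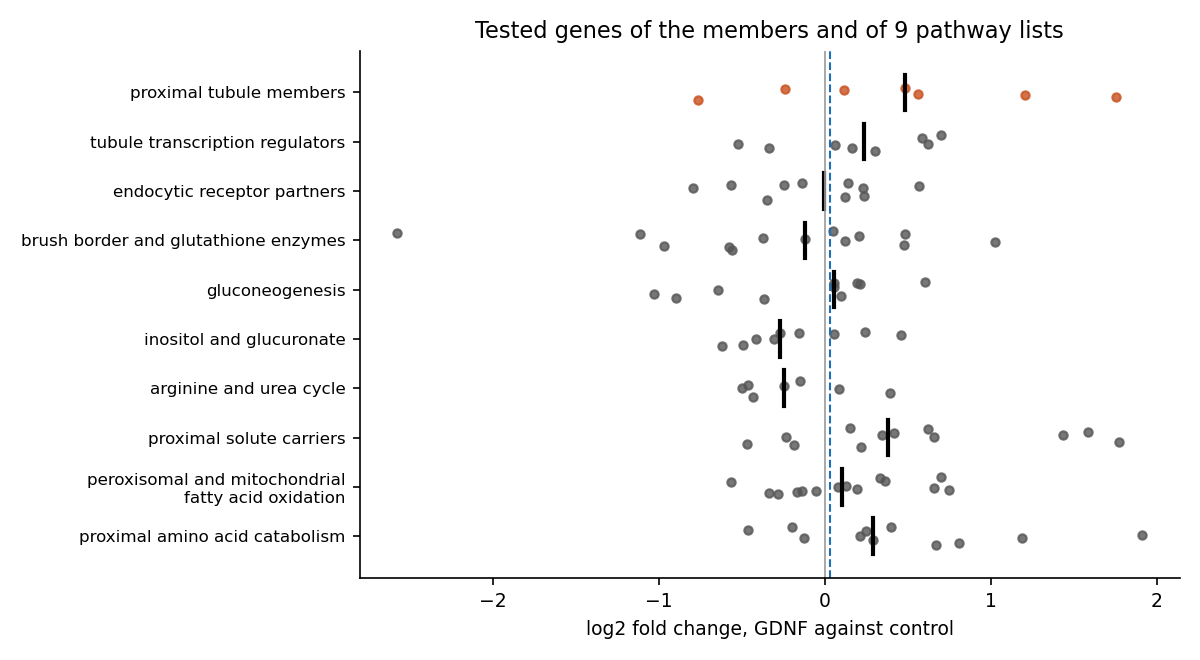
Log2 fold change, GDNF against control, of each tested gene (points, spread vertically at random) of the members (orange) and of 9 pathway lists (grey), with the median of each (black tick) and that of all tested genes (dashed line, 0.03). Medians run from -0.27 for inositol and glucuronate genes to 0.48 for the members, and the points of every list lie on both sides of 0.

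GDNF culture 6 set the highest value for *Hnf4a*, *Lrp2*, *Ggt1*, *Anpep*, *Miox* and *Pck1* in TPM. The same culture had the highest sums of kidney epithelial (568.8 TPM), loop and distal (48.8 TPM) and collecting duct markers (91.6 TPM), and its stromal sum (263.4 TPM) was the lowest of the GDNF cultures. Control culture 3, in which *Hnf4a* had 2 counts and *Ggt1* stood at 11.3 TPM, had the lowest stromal sum of all (210.1 TPM). Control culture 14, with no *Lrp2* count and the lowest *Ggt1*, had the highest stromal sum (1752 TPM) and the lowest epithelial sum (139.7 TPM). The part of these differences in the members' values was not tested.

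Across cultures the members shared no common pattern, and 10 of 21 pairs had a Pearson r above 0. Over 8 cultures, 2 of the 21 pairs of tested members had a Pearson r of log2 CPM above 0.7, *Lrp2* with *Ggt1* (0.72) and *Anpep* with *Pck1* (0.76), and the median over pairs was -0.01, or 0.27 with group means removed. These values describe libraries that share depth and composition and carry no test. Among 13889 genes with a mean CPM of at least 1, the patterns most like each member were *Gm16023* (0.98) and *Spata2l* (0.97) for *Hnf4a*, *Sh3tc1* (0.98) for *Lrp2*, and *Scml2* (0.95) and *Rbp4* (0.91) for *Cubn*. For the enzymes they were *Sostdc1* (0.99) and *Neu1* (0.98) for *Ggt1*, *Tha1* (0.97) and *Erap1* (0.96) for *Anpep*, *Snord49b* (0.98) and *Mycn* (0.95) for *Pck1*, and *Sgcd* (0.96), after its copy *Gm5424*, for *Ass1*. Values of r this high can be found by choosing among so many genes over 8 cultures.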

How the data were processed

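RNA of 8 tubuloid cultures was made into SMART-Seq v4 libraries and sequenced as 75 bp paired-end reads. The submitters' processing notes name STAR, featureCounts, DESeq2 and the builds mm10 and GRCm38. Each culture came as 1 table. Its counts, as deposited, are raw whole numbers for RefSeq transcripts. The deposited FPKM values divide them by transcript length and total and were used only for lengths. TPM values were deposited too, which the authors brought to an equal total per library. Totals were 72991721 to 97490625 counts, and floors of 3 counts cover counting error only. The rule for reads that fit several transcripts or genes is not given in the sources used here.

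Groups came from the sample titles. Counts were summed per symbol and compared with edgeR 4.0.16 (filterByExpr, TMM factors, quasi-likelihood test, Benjamini-Hochberg adjustment over 16557 genes, threshold 0.05). The SE was the log2 fold change divided by the square root of F. TPM differences were compared by two-sided exact permutation tests. Nothing says that cultures came from separate animals, so p-values measure the spread between cultures. Alternatives were limma 3.58.1 (voom with sample weights), DESeq2 1.42.0, other scalings and filters, a length trend as an offset, kind of culture as a covariate, other TPM versions and leaving out each culture. Fits were tested on simulated counts. The members, gene lists and tests were chosen with earlier results of these data known. Genes of the pathway lists were named for groups without overlap in CPM at an unadjusted p of at most 0.05, or for the highest mean TPM of their list. Others (such as *Pck2*, *G6pc* or *Slc22a8*) were named after their values were seen. Some genes that this rule names are not reported here. Coordinates and promoters are RefSeq's (GRCm38.p6), and exon overlaps are from GENCODE M21. Python 3.11.15 was used for tables and figures.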

Additional observations from a re-analysis of the deposited data

Results flagged for a closer look

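Of 18 groups of 4 values examined (9 members in 2 groups, TPM), 2 held a culture far from the other 3 by Dixon's criterion, where chance gives about 1 in 20 (0.9 groups). *Anpep* was at 1.64 TPM in control culture 7 (336 counts), while the other controls lay between 0.391 and 0.577 TPM. *Fbp1* was at 0.111 TPM in control culture 21, on 8 counts, while the other controls lay between 0 and 0.0109 TPM.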

How the results depend on the processing

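With edgeR and limma-voom the count of genes past the adjusted threshold was 0 under all scalings, filters and omissions of a culture tried. DESeq2 called 1057 genes, of which none was a member, but it gave an adjusted p only to *Ggt1* and *Ass1*, so the other members could not be called. The count of members at an unadjusted p of 0.05 went from 0 to 1 with DESeq2 (*Hnf4a*), to 1 with the length trend as an offset (*Cubn*), and ranged from 0 to 2 when single cultures were left out (*Hnf4a* without GDNF culture 12, *Cubn* without GDNF culture 17, *Anpep* without GDNF culture 22, and *Hnf4a* and *Anpep* without control culture 7). In the main fit 22.1% of all tested genes were at that unadjusted p, so counts this small do not set the members apart. The count of members past the exact test of TPM ranged from 0 to 1 when single cultures were left out, through *Lrp2* without control culture 3 (difference 0.0527 TPM, exact p = 0.0286). With all cultures, 20.6% of tested genes passed that test as higher after GDNF and 0.61% as lower. The median log2 fold change of the tested members ranged from 0.14 to 0.74 when single cultures were left out, and was 0.13 with at least 10 counts required in every culture, which drops *Hnf4a* and *Lrp2*, and 0.22 with the length offset, against 0.48. Directions turned for *Lrp2* with the length offset (-0.21), for *Ggt1* without GDNF culture 6 (-0.21), control culture 14 (-0.19) or control culture 21 (-0.14), and for the difference of *Ass1* in CPM (-1.88). With limma-voom, *Lrp2* was at 2.08 and *Hnf4a* at 1.03. With no filter on low counts, *Miox* was at 1.72 ± 1.66 and *Fbp1* at 0.91 ± 1.55. Within kinds of culture the smallest exact p possible was 0.0556, so that test could not pass 0.05. The sources used here tie no control culture to a GDNF culture, so no paired analysis was made and any pairing was ignored. *Fbp1* had at most 10 counts in any culture, and *Miox* had 24 and 12 counts in 2 GDNF cultures and 0 in the other 2.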
